A study of Mus musculus with 2 samples.

Results

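Mir149, Mir218-1 and Mir218-2 are microRNA genes carried in introns of axon guidance genes, and they are 3 of the 1973 microRNA genes counted in the mouse embryonic forebrain. They were selected by symbol and host gene, on a list that was drawn up with their read counts known. Their levels are therefore given as a description, with no test. The tissue was forebrain of B6NCrl mouse embryos at embryonic day 13.5, healthy, with both sexes mixed. There was 1 group of 2 libraries, which the labels call biological replicates 1 and 2. The biosample identifiers differ and the donor identifier is shared, so the spread between the libraries may in part be technical. No condition was varied, and the libraries held RNA shorter than 30 nucleotides.

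A microRNA is cut from a hairpin precursor into short strands from its 5′ and 3′ arms (5p and 3p). A loaded strand pairs with target messenger RNAs mainly through its seed, bases 2 to 8. Gpc1 encodes glypican-1, a cell-surface heparan sulfate proteoglycan. Slit2 and Slit3 encode secreted guidance cues that are read by Robo receptors on growing axons, and heparan sulfate takes part in that signalling. A microRNA in an intron can be made from the transcript of its host gene, and miR-218 is known for its abundance in motor neurons of the hindbrain and spinal cord.

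The mature strands are shown because they set which reads can be told apart. All microRNA sequences are from RefSeq on GRCm38.p6, written 5′ to 3′, with the seed in capitals.
miR-149-5p: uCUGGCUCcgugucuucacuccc
miR-149-3p: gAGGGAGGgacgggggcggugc
miR-218-5p: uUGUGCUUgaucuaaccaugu
miR-218-1-3p: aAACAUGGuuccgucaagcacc
miR-218-2-3p: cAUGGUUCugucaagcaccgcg
The 5p strand of miR-218 is the same at both loci, whereas every other strand listed comes from 1 locus. No other RefSeq mouse microRNA has the seed of miR-149-5p. The seed of miR-218-5p is shared with miR-7002-3p, whose gene Mir7002 had 1 count in replicate 1 and 0 in replicate 2. The seed of miR-149-3p is shared with 3 others, among them miR-1943-5p of Mir1943, with 3 and 5 counts. The miR-149-3p strand was 81.8% G and C, against 60.9% for miR-149-5p and 38.1% for miR-218-5p.

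The hairpins show where the shared stretch lies, with the mature strands in capitals.
Mir149: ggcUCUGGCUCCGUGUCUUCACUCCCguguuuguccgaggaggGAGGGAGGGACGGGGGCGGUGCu
Mir218-1: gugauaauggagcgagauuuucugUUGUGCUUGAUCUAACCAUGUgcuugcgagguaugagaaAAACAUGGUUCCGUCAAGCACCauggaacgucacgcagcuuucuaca
Mir218-2: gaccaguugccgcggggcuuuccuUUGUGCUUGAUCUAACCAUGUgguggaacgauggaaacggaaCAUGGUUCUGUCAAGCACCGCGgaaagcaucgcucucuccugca
The longest exact stretch common to the Mir218 hairpins was 22 nucleotides, which is the whole 5p strand and 1 base after it. Across the hairpins, placed end to end without gaps, 64.5% of positions were the same. The 3p strands overlapped over 19 bases and differed at 1 of them, shown in capitals.
Mir218-1 3p: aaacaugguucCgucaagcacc
Mir218-2 3p: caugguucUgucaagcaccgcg
The longest stretch that Mir149 shared with any of the other RefSeq hairpins was 12 nucleotides, in Mir92b and in Mir6929. Mir149 had the shortest hairpin of the 3 genes, at 66 nucleotides, and 68.2% G and C against a median of 51.7% over 1005 RefSeq hairpins. Its predicted minimum free energy was -55.6 kcal/mol per 100 nucleotides, lower than -33.3 for Mir218-1, -38.5 for Mir218-2 and the median of -40.6.

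All 3 genes lay in introns, on the strand of their host (GRCm38 coordinates, GENCODE M21 transcripts). Mir149 (ENSMUSG00000065470.1; chr1:92850378-92850443, plus strand) lay in intron 1 of 8 of Gpc1. That intron was 21249 nucleotides long, and the next exon began 2903 nucleotides after the microRNA. Mir218-1 (ENSMUSG00000065603.1; chr5:48223942-48224051, plus strand) lay in intron 14 of 35 of Slit2, 601 nucleotides before the next exon. Mir218-2 (ENSMUSG00000065583.1; chr11:35616816-35616925, plus strand) lay in intron 14 of 35 of Slit3, 5082 nucleotides before the next exon. The paralogous Slit genes thus held the Mir218 copies in the same numbered intron, although the introns were 4572 and 9571 nucleotides long.

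**Figure D1:**
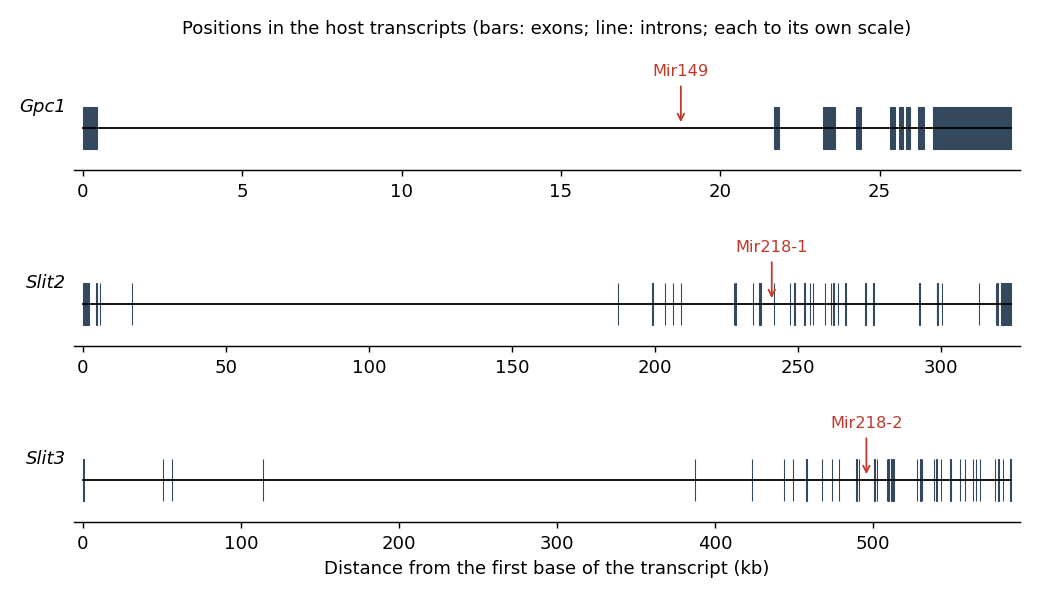
Position of each microRNA gene in its host transcript, with exons as bars (drawn with a minimum width), introns as a line and the distance from the first base of the transcript in kb, each panel to its own scale. Mir149 sits in the long first intron of Gpc1, and both Mir218 genes sit in intron 14, 74.2% and 84.4% of the way along Slit2 and Slit3.

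Mir149 was among the most counted microRNA genes of the forebrain libraries. It had 110355 counts in replicate 1 and 91130 in replicate 2, from library totals of 4117752 and 3908953 counts on genes. Relative to 1000000 gene counts (CPM) these were 26800 and 23313 CPM, or 25057 ± 2465 CPM (SD, n = 2). Its share of gene counts was 2.68% in replicate 1, with a 95% Wilson interval from 2.66 to 2.70, and 2.33% in replicate 2, from 2.32 to 2.35. Mir149 ranked 8 in replicate 1 and 10 in replicate 2, and 9 by the mean. In a tissue sample, fewer cells of a type and less RNA per cell cannot be told apart.

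The neighbours of Mir149 in the order of mean CPM were not all separable from it. Mir100, directly above, had 24452 and 27909 CPM, and Mir93, directly below, had 22627 and 24195 CPM. The ranges of both overlapped that of Mir149. Mir99b, 2 places above at 31157 and 27417 CPM, and Mir20a, 2 places below at 18786 and 22847 CPM, did not overlap it. The Mir20a and Mir149 ranges came close, since the higher Mir20a library was at 22847 CPM and the lower Mir149 library at 23313 CPM.

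Both Mir218 genes were counted at low levels. Mir218-1 had 57 counts in replicate 1 and 49 in replicate 2, which were 13.8 CPM (exact 95% Poisson interval 10.5 to 17.9) and 12.5 CPM (9.27 to 16.6). Mir218-2 had 73 and 53 counts, which were 17.7 CPM (13.9 to 22.3) and 13.6 CPM (10.2 to 17.7). The means were 13.2 ± 0.924 CPM and 15.6 ± 2.95 CPM (SD, n = 2). In both libraries both genes stood far above the limit of 3 counts that a count of 0 allows, 0.729 and 0.767 CPM. All 3 genes passed the detection rule of at least 10 counts in each library, which 377 genes did. Among those 377, Mir218-2 ranked 288 and Mir218-1 ranked 294 by mean CPM.

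**Figure D2:**
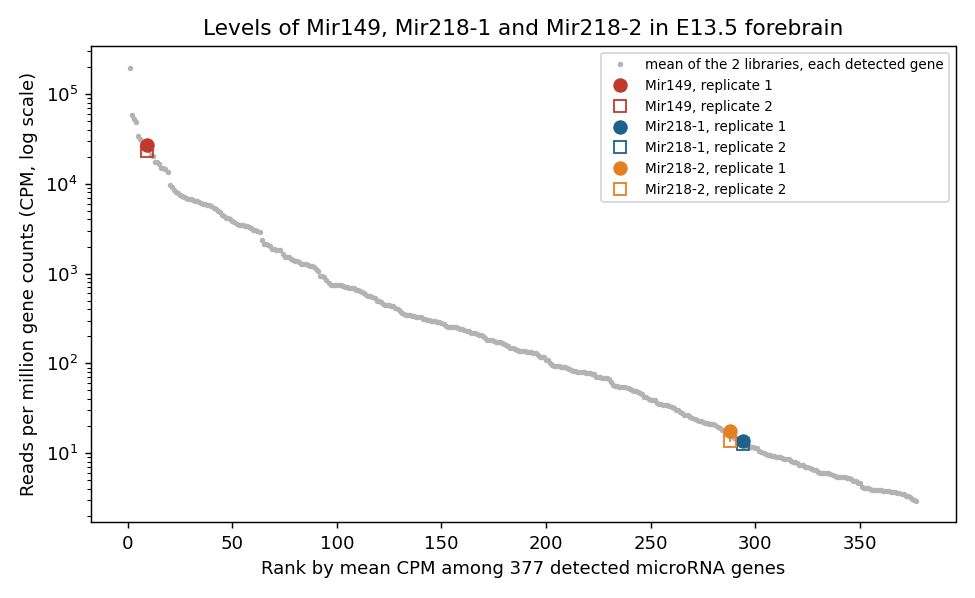
CPM (log scale) against rank for the 377 detected microRNA genes, with grey points for the mean of both libraries and filled circles (replicate 1) and open squares (replicate 2) for Mir149, Mir218-1 and Mir218-2. Mir149 lies between 23313 and 26800 CPM near the top, and the Mir218 genes lie between 12.5 and 17.7 CPM.

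The Mir218 genes could not be ordered against each other or against their neighbours. Mir218-1 over Mir218-2 was 0.781 in replicate 1 (exact 95% interval 0.542 to 1.12) and 0.925 in replicate 2 (0.614 to 1.39), or 0.853 ± 0.102 (SD, n = 2). The interval of each library included equal counts, and the CPM ranges of the genes overlapped. All 8 of the nearest neighbours also had ranges that overlapped their Mir218 gene, from Mir150 (15.3 and 19.4 CPM) to Mir344f (9.71 and 14.3 CPM). Mir873a, in Lingo2, and Mir490, in the muscarinic receptor gene Chrm2, stood just above Mir218-1 at 14.1 ± 1.42 and 13.7 ± 1.21 CPM.

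The counts of Mir218-1 and Mir218-2 do not hold reads set aside as aligning to several places. A summary row holds those, 4315754 in replicate 1 and 4589546 in replicate 2, or 40.6% and 43.9% of the reads. A read of the miR-218-5p strand shown above fits both loci, so it was taken to fall in that row. How many of those reads were miR-218-5p was not tested, since the row is not divided by gene. The 130 and 102 counts of both genes together (28.8 ± 3.87 CPM) thus cannot be read as the amount of miR-218-5p. The tables do not separate 5p from 3p reads. The 849-fold and 893-fold excess of Mir149 over both Mir218 genes, in replicates 1 and 2, compares counted reads under this limit.

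The position of the Mir218 genes among other genes with a shared strand was then described. Among 582 measured genes with both mature strands in RefSeq, 53 shared 1 strand with another locus, 513 shared none and 16 shared both. The median was 36.5 CPM for genes that shared 1 strand, and 21 of the 53 lay below Mir218-1 while 30 lay above Mir218-2. In that class 37 of 53 (69.8%) were detected, against 244 of 513 (47.6%) of genes with no shared strand and 4 of 16 (25%) of genes that shared both. Among the 37 detected genes that shared 1 strand, the median was 238 CPM, with 5 below Mir218-1 and 30 above Mir218-2. Mir149, with no shared strand, stood above 504 genes of its class and below 8.

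Among microRNAs made from 2 loci, the Mir218 pair was low and even in counted reads. Of 23 such pairs listed, 22 had both genes in the tables, and the summed level of Mir218-1 and Mir218-2 ranked 17, against a median of 133 CPM. The 6 pairs with the highest sums were Mir181a at 6824 ± 375 CPM, Mir92 at 5159 ± 103, Mir16 at 4992 ± 398, Mir125b at 3578 ± 249, Mir181b at 3078 ± 717 and Mir128 at 1321 ± 320 (SD, n = 2). Each of them also shares 1 strand between its genes. Reads of a shared strand fit both genes and were taken to be set aside as multi-mapped. The sums, and the ratios below, thus cannot be read as amounts of each microRNA. The Mir218 pair summed to 31.6 CPM in replicate 1 and 26.1 CPM in replicate 2, below each of the 6 in both libraries. Mir19b-1 and Mir19b-2, ranked directly above it and named after their values were seen, summed to 28.4 and 31.0 CPM and overlapped it.

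In counted reads, the higher gene of the Mir218 pair stood 1.19-fold above the lower by mean CPM, the smallest of the 20 ratios that could be formed. The next was 1.30-fold for Mir128-1 over Mir128-2. The median was 3.96-fold, and 6 of the 20 pairs were within 2-fold. At the other end, Mir181b-2 stood 91.2-fold above Mir181b-1. The place of the Mir218 pair did not hold in each library. In replicate 1 it was 1.28-fold uneven, as were the Mir128 genes, while Mir29b-1 and Mir29b-2, with 7 and 6 counts, were 1.17-fold uneven. The interval of the Mir218 ratio in that library also reached down to 0.542.

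**Figure D3:**
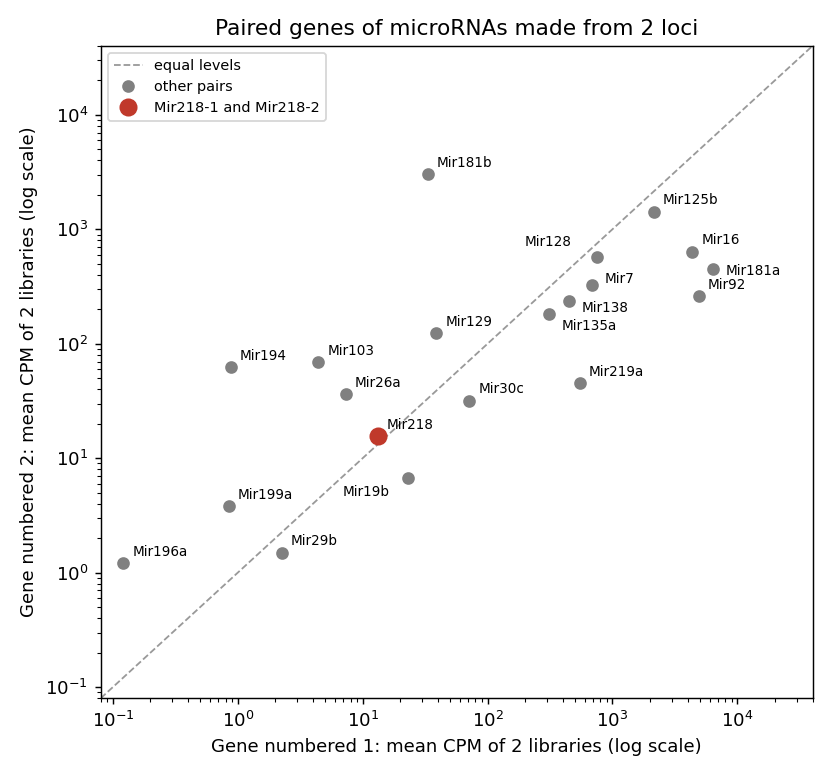
Mean CPM of 2 libraries (both axes on a log scale) for the gene numbered 1 and the gene numbered 2 of each microRNA made from 2 loci, with the Mir218 pair in red and a dashed line at equal levels. The Mir218 pair lies beside the line at 13.2 and 15.6 CPM, while Mir181b lies 91.2-fold away from it. Reads that align to several places are not in these values.

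Mir149 also led the microRNA genes that lie inside axon guidance genes. Hosts were taken by symbol prefixes for netrins, semaphorins, plexins, ephrins, Slit and Robo genes, glypicans, contactins, teneurins and related families. The contactin prefix also took in Cntnap5a, a contactin-associated gene. In all, 22 measured microRNA genes had such a host on either strand. Of these 5 were detected (22.7%), against 377 of 1894 genes with a symbol (19.9%). The others of the 5 were Mir342, in the actin regulator Evl, and Mir708, in the teneurin gene Tenm4. Mir342 had 8258 and 6837 CPM, and Mir708 had 5428 and 6821 CPM. Both lay below Mir149 and above the Mir218 genes in each library, and Mir149 held 64.6% of the mean CPM of the 22. A total of 15 of the 22 had 0 counts in both libraries, while Mir7011 in Sema4a had 1 and 1 and Mir6352 in Epha4 had 0 and 1.

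The libraries were next compared with each other, by a two-sided exact binomial test of each gene with TMM library sizes from edgeR and Benjamini-Hochberg adjustment over 475 genes. This comparison covers counting error and says nothing of conditions. At an adjusted p under 0.05, 38.9% of the genes tested were called, 99 lower and 86 higher in replicate 2. With DESeq2 size factors the split was 118 lower of 185, and with library totals 141 lower of 195. Of the 3 genes, 1 was called, a share near that background and so no result about these genes.

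Mir149 was called lower in replicate 2, by a small amount. Its log2 ratio of replicate 2 over replicate 1 was -0.092 (exact 95% interval -0.105 to -0.080), with an exact binomial adjusted p of 2.46e-45. With library totals the ratio was -0.20, over 1.5 times as far from 0. After TMM scaling, the size of the Mir149 difference was under the median absolute log2 ratio of the detected genes, 0.21. It was also under the 0.14 of genes with 10000 counts or more in each library. Both medians are after TMM scaling, so the ratio with library totals is not set against them. With the spread between these libraries in the model (edgeR exact test, coefficient of variation 14.3%), Mir149 was not called, at an adjusted p of 1. That test called 1 of 475 genes, and 31 had an unadjusted p under 0.05. It took its dispersion from the very libraries it compared, which holds down its number of calls.

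Neither Mir218 gene was called. Mir218-1 had a log2 ratio of -0.032 (-0.62 to 0.54; exact binomial adjusted p = 0.978), and Mir218-2 had -0.27 (-0.82 to 0.25; adjusted p = 0.497). These intervals include 0 and do not show that the libraries were alike. The depth set what could be called, in classes of count chosen after the values were seen. Where both libraries had 10000 counts or more, as for Mir149, 53 of 61 genes were called, with an absolute log2 ratio as small as 0.033. Of 23 genes with 80 to 160 counts in both libraries together, the Mir218 genes among them, 4 were called, and the smallest absolute log2 ratio called was 0.64.

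**Figure D4:**
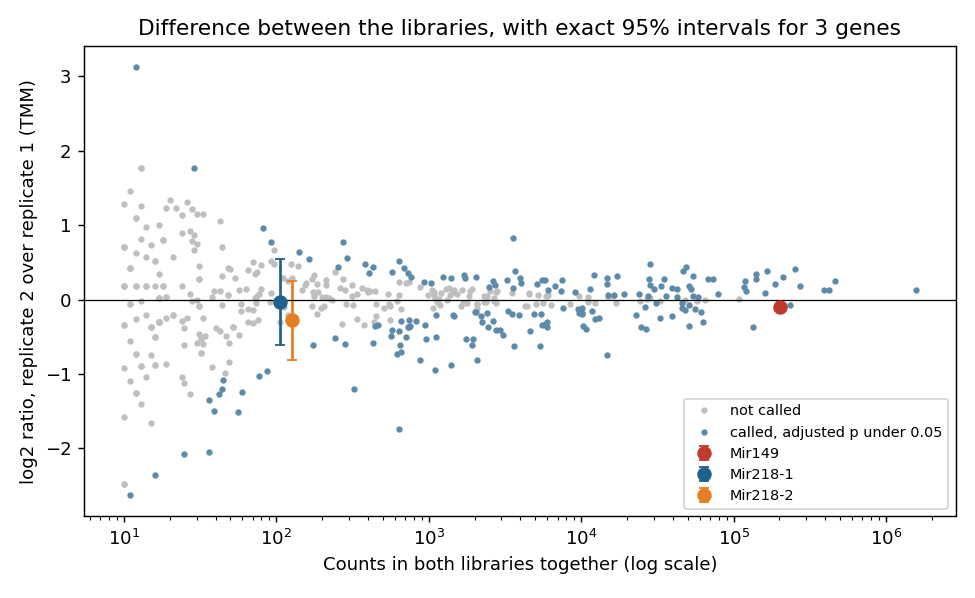
Log2 ratio of replicate 2 over replicate 1 after TMM scaling against the counts of both libraries together (log scale) for 475 genes, in blue where called at an adjusted p under 0.05 by the exact binomial test and in grey otherwise. Bars are exact 95% intervals: Mir149 lies at -0.092 with a bar shorter than its symbol, and the bars of Mir218-1 and Mir218-2 cross 0.

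Markers of the tissue and of other tissues were set beside these genes. The neural list was led by Mir92b (13430 ± 660 CPM) and Mir137 (7852 ± 1559 CPM), which mark neural progenitors and neurons. No list was made for forebrain as against other neural tissue, so the forebrain label was not tested. Of 10 measured neural genes 8 were detected, against 377 of 1894 genes with a symbol (19.9%). Detection was also above that share for vascular genes (3 of 4), blood genes (4 of 4) and muscle and liver genes (3 of 7). It thus does not set the neural list apart. The same 19.9% is the background for the count of Hox genes below. Mir9-3 was at 738 ± 22.2 CPM and Mir9-2 at 4.73 ± 0.178 CPM, both with a copy. The neuronal genes Mir124a-1, Mir124a-2 and Mir124a-3, which have copies of each other, were at 0.748 to 4.86 CPM. Genes of the Hox clusters, expressed in hindbrain, spinal cord and trunk, were detected for 4 of 6, with 446 CPM in replicate 1 and 293 CPM in replicate 2 in all. Mir10a led them at 263 and 170 CPM, above the 31.6 and 26.1 CPM of the Mir218 pair. These are unlike measures, since Mir10a shares no RefSeq strand with another locus and the Mir218 sums lack reads taken to be multi-mapped. Mir196a-1 was at 1 and 0 counts. After TMM scaling, Mir10a and Mir10b were called lower in replicate 2, with log2 ratios of -0.52 and -0.53. Mir196b, Mir615 and Mir196a-2 were not called. The neural list also summed lower in replicate 2, at 27236 and 23525 CPM, but its members did not all fall after TMM scaling. Mir137, Mir128-1 and Mir128-2 were called lower, with log2 ratios of -0.30, -0.37 and -0.41. Mir92b, Mir153 and Mir9-3 were not called, with log2 ratios of 0.008, 0.045 and 0.047. The part of any of these cells in the Mir218 counts was not tested. Summed levels in replicates 1 and 2 were 19172 and 22848 CPM for 4 vascular genes, led by Mir126a. They were 409 and 335 CPM for 4 blood genes, whose members moved in opposite directions. The red cell gene Mir451a was called lower in replicate 2 (123 and 34.3 CPM, log2 ratio -1.73) and Mir144 was called higher (26.5 and 42.0 CPM, log2 ratio 0.77). The sums were 108 and 89.8 CPM for 7 muscle and liver genes, of which Mir133a-1, Mir133a-2, Mir133b and Mir1a-1, all with a copy, were at 0. The other members were detected, with Mir122 at 59.3 and 52.7 CPM, Mir208b at 37.9 and 33.8 CPM and Mir206 at 10.4 and 3.33 CPM.

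No reads were counted opposite to Mir149, Mir218-1 or Mir218-2. All 3 had 0 opposite-strand counts in both libraries, which allows up to 0.729 CPM in replicate 1 and 0.767 CPM in replicate 2.

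As a guide to what the strands could pair with, seed matches were looked for in the 3′ untranslated regions (UTRs) of 11 genes, which were Slit1 to Slit3, Robo1 to Robo4, Srgap1 to Srgap3 and Gpc1. These are matches of letters and carry no measurement from the libraries. The longest GENCODE M21 3′ UTR of each gene was searched on its own strand for AAGCACA (opposite the miR-218-5p seed) and GAGCCAG (opposite the miR-149-5p seed). Over 21007 genes, 13.8% held the former and 14.7% the latter.

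AAGCACA was present in 6 of the 11 genes. They were the receptor genes Robo1, Robo2 and Robo3, the ligand and host gene Slit2, and Srgap2 and Srgap3, whose proteins act downstream of Robo. Robo1, Robo2 and Robo3 are shown because they encode receptors of the Robo family, and Slit2 because it carries Mir218-1. The sequences are from GENCODE M21 transcripts, with the match in capitals and its first base counted from the start of the UTR.
Robo1 at 986: ttttggttttaaAAGCACAatc
Robo2 at 461: ttatttggtgatAAGCACAaat
Slit2 at 302: caatactagcagAAGCACAtct
Slit2 at 2605: taattattagcaAAGCACAtaa
Robo2 at 2787: cacggcagacccAAGCACAgct
Robo3 at 137: tgtgactcactgAAGCACActg
An A, opposite base 1 of miR-218-5p, follows the match at Robo1 and at the first Robo2 match, and another base follows the other matches shown. Among UTRs within 20% of the same length, the share with a match was 18.2% for Robo1, 37.3% for Robo2, 32.8% for Slit2 and 2.84% for Robo3, whose UTR was 343 nucleotides long. It was 38.2% for Srgap2 and 42.7% for Srgap3. Among genes without a match it was 39.9% for Srgap1, 22.1% for Gpc1, 18.2% for Robo4 and 11.1% for Slit1. Most of these UTRs were longer than the median of 961 nucleotides over all genes, so the 13.8% is a low measure for them. Whether 6 of 11 is an excess was not tested. Slit3, the host of Mir218-2, had no match in its 365 nucleotides, where 3.14% of UTRs of like length had one.

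GAGCCAG was present in 4 of the 11 genes, namely Gpc1, Robo1, Srgap1 and Srgap2. Among UTRs of like length, the share with a match was 18.7% for Robo1, 35.7% for Srgap1 and 34.3% for Srgap2. Among the genes without a match it ran from 4.92% for Robo3 to 39.9% for Srgap3. As most of these UTRs were long, the 14.7% over all genes is a low measure for them too. Whether 4 of 11 is an excess was not tested. The host gene Gpc1 had 3 matches in 2215 nucleotides, where 23.5% of UTRs of like length had at least 1. They are shown because they lie in the transcript that carries Mir149.
Gpc1 at 199: caggtcagctgcGAGCCAGtgt
Gpc1 at 1870: tatgggaggaggGAGCCAGgat
Gpc1 at 1884: gccaggataccaGAGCCAGcca
The levels of these host and target messenger RNAs were not analysed here.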

How the data were processed

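MicroRNA sequencing of 2 libraries of 1 group was used. The deposited values are whole-number read counts per microRNA gene in a separate table for each library, on mm10 with GENCODE M4 annotation per the deposited read-me texts. In the sources used here, the aligner and counter of the authors are not given. Of 3 count columns, own-strand counts were used, and 4 summary rows (unmapped, multi-mapped, without a feature, ambiguous) were left out. In replicate 1 they held 16.7%, 40.6%, 3.99% and 0% of 10631040 reads, in replicate 2 15.0%, 43.9%, 3.71% and 0% of 10452225.

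Symbols and positions came from GENCODE M21 on the same build (1894 of 1973 identifiers matched), and sequences from RefSeq (GRCm38.p6; 916 genes matched by symbol). Of the 3 members, 3 matched both. CPM values were computed from own-strand gene counts. They compare numbers of reads, and any capture bias between microRNAs was not measured. Detection required 10 counts or more in replicate 1 and again in replicate 2.

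With 1 group no test between conditions exists. Genes with at least 10 counts in both libraries together were tested across the table by a two-sided exact binomial test (R 4.3.3, edgeR 4.0.16 TMM sizes, prior count 0.5 for ratios). The test was checked on simulated data that held counting error only, with no further spread between libraries. Alternatives were DESeq2 1.42.0 size factors, library totals, either-strand counts, other filters, an edgeR exact test, other denominators and single libraries. Hairpins were folded with ViennaRNA 2.7.2. A gene had a copy when another microRNA transcript shared 20 nucleotides exactly. Intervals and limits cover counting error only, since amplified reads are not independent molecules.

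Named genes were the 3 members, the 2 genes above and the 2 below each in mean CPM, marker lists, listed 2-locus pairs and microRNAs inside axon guidance genes. Members and lists were chosen with earlier results of these data known. Genes named outside these rules were chosen after their values were seen.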

Additional observations from a re-analysis of the deposited data

How the results depend on the processing

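With all reads of the table in the denominator, summary rows included, the levels were 9550 CPM for Mir149, 5.02 for Mir218-1 and 5.97 for Mir218-2. With genes that have a copy left out of the denominator, Mir218-1 stood at 14.4 CPM. In single libraries the values ran from 23313 to 26800 CPM for Mir149, 12.5 to 13.8 CPM for Mir218-1, 13.6 to 17.7 CPM for Mir218-2 and 0.781 to 0.925 for Mir218-1 over Mir218-2. Mir149 kept a negative ratio between the libraries in the alternatives run, from -0.20 with library totals to -0.092, and lost its call in the edgeR exact test alone (-0.092, adjusted p of 1), which called 1 gene of the table in all. The other alternatives called 171 to 195 genes. The Mir218 ratios stayed negative and uncalled in each alternative that gave a value. Mir218-1 has none with at least 50 counts in each library, since it had 49 in replicate 2. With about 50 to 70 counts a library, depth limits both Mir218 genes, and the multi-mapped reads that are not divided by gene limit them further.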
